A study of Rattus norvegicus with 8 samples.

Results

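The subject here is the comparison of tumours from mice given rapamycin together with clorgyline against tumours from mice given vehicle. It used 4 of the 8 tumours of the series, taken by their titles, with 2 tumours in each group. All were subcutaneous xenografts of ELT3-V3 cells, a rat leiomyoma line, in female NOD-scid mice that were 6 weeks old at inoculation. NOD-scid mice have no functional T or B lymphocytes. Treatment was assigned at random once tumours measured 150 to 200 mm3. Controls received the vehicle alone, which was 0.2% carboxymethylcellulose with 0.25% Tween-80. The combination group received clorgyline at 10 mg/kg per day with rapamycin. The dose of rapamycin is given as 0.25 mg/kg per day for the rapamycin group and is not repeated for the combinations. The remaining tumours, 2 given rapamycin alone and 2 given rapamycin plus the monoamine oxidase B inhibitor rasagiline (1 mg/kg per day), serve below as points of reference.

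Rapamycin binds the protein FKBP12 and the complex inhibits mTORC1, the kinase complex through which nutrients and growth factors promote translation, lipid and nucleotide synthesis and restrain lysosome biogenesis and autophagy. ELT3 cells lack tuberin, the product of Tsc2, which normally holds mTORC1 in check, and they are used as a model of lymphangioleiomyomatosis. Clorgyline is an irreversible inhibitor of monoamine oxidase A, a mitochondrial outer-membrane enzyme that deaminates serotonin and noradrenaline and releases hydrogen peroxide. The comparison with vehicle joins the effects of both drugs, because no tumours given clorgyline alone are among those analysed here.

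Expression was given as TPM, the abundance of each gene after division by its length and scaling of every library to a fixed sum, so that sequencing depth was unknown. Genes carry Ensembl identifiers only. None of the 23918 could be paired with a symbol, so the levels of monoamine oxidase A, of mTORC1 targets and of the markers of tumour and host cells were not analysed here, and the tissue labels could not be checked against markers. Mouse transcripts in the xenografts were not measured apart from rat transcripts. Between 12479 and 12982 genes reached 1 TPM in each of the 4 tumours. The gene most abundant in the controls took 3.17% and 3.55% of their TPM, 2.95% in the first and 0.97% in the second combination tumour. It was 0.99 lower on the log2 scale in the combination group, which did not pass (log2 difference -0.99; limma, Benjamini-Hochberg adjusted p = 0.338). Fewer cells of a type and less RNA per cell cannot be told apart in such bulk samples.

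Tumours given rapamycin with clorgyline differed from vehicle tumours in 204 of 12961 genes tested, which is 1.57%. Of these, 116 rose (0.895% of genes tested) and 88 fell (0.679%). The table lists 5 of the 88 with the same values in all 8 tumours, so the genes that fell hold 84 distinct measurements. With such identifiers counted once, 115 rose and 84 fell among 12900. The test was limma on log2(TPM + 1), fitted to these 4 tumours, with a Benjamini-Hochberg adjusted p below 0.05. Risen genes had a median log2 difference of 1.86 and fallen genes one of -1.49, against 0.06 over all genes tested. In the limma fit 2336 genes were below 0.05 before adjustment, where chance gives 648. The number called rested on single tumours. It was 3 without the second combination tumour and 94 without the first, and 55 and 89 without the first and second control. It was 28 after quantile normalization, 77 after median rescaling, 0 with no filter on low values, 382 with a filter of 5 TPM, and 2 when all 8 libraries shared 1 estimate of the spread.

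**Figure D1:**
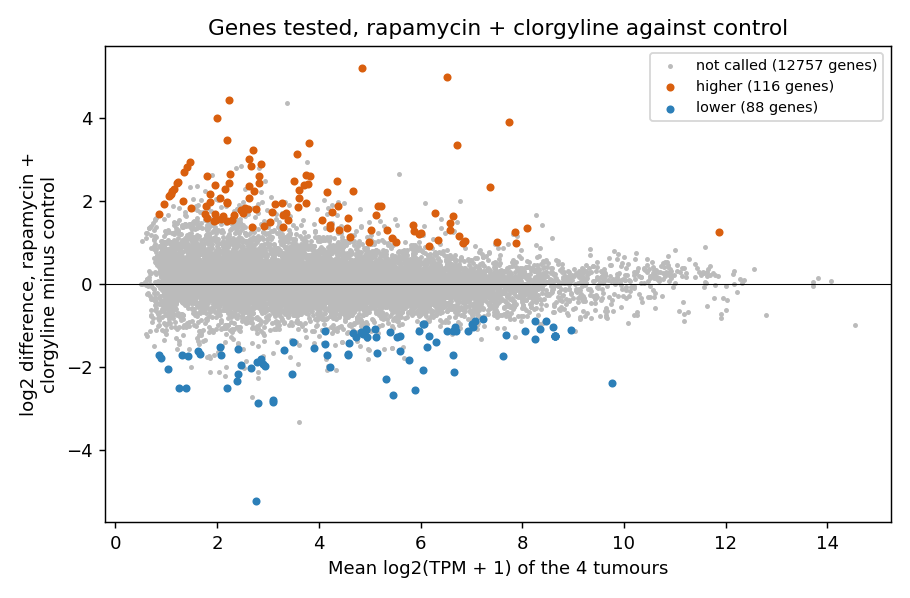
Each point is 1 of the 12961 genes tested, with the mean log2(TPM + 1) of the 4 tumours on the horizontal axis and the log2 difference of rapamycin with clorgyline minus control on the vertical axis. The 116 genes that rose start at 0.92 and reach 5.22, and the 88 that fell start at -0.85 and reach -5.23. Grey points are the genes that did not pass the test.

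Size alone did not decide which genes passed. Of 14 genes that differed by 3 or more on the log2 scale 12 were called, of 84 that differed by 2 to 3 it was 52, and of 720 that differed by 1 to 2 it was 130. Only 10 of the 2169 genes between 0.5 and 1 passed, and none of the 9974 below 0.5. The 2 groups did not overlap for 6365 genes tested (49.1%). With the combination 3709 were higher (28.6% of genes tested) and 2656 lower (20.5%). With 2 tumours in each group many genes separate by chance, so these shares are a description. All 204 called genes were among the 6365, which follows largely from how they were called. For 67.7% of genes both ends of the 95% interval were less than 1 log2 unit from 0, and for the remainder the interval reached at least that far on one side.

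The largest rise was that of ENSRNOG00000058006. It stood at 1.75 and 7.16 TPM in the controls and at 137 and 223 TPM in the combination tumours. Both combination tumours were thus far above both controls, although the controls themselves differed several-fold. The mean went from 4.45 ± 3.83 to 180 ± 60.3 TPM (SD, n = 2 each). This was a 40.4-fold rise (log2 difference 5.22, SE 0.493; limma adjusted p = 0.0179). The tumours given rapamycin alone had 10.6 and 2.09 TPM, near the controls. Those given rapamycin with rasagiline had 50.9 and 158 TPM. The gene was named for its rise in these same clorgyline combination tumours. The interval that follows is not adjusted for that choice or for the number of genes. In the fit of all 8 libraries the clorgyline combination exceeded rapamycin alone by 4.88 (log2, 95% interval 3.003 to 6.755), which did not pass over all genes (limma adjusted p = 0.248). In that fit its difference from control did not pass either (limma adjusted p = 0.0987). The call against control was also lost without the second combination tumour (limma adjusted p = 0.0877), after quantile normalization (0.058) and with no filter (0.169).

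ENSRNOG00000016945 showed the next largest rise. It was at 13.8 and 16.9 TPM in the controls and at 292 and 904 TPM in the combination tumours. The lower combination tumour was well above both controls, and the combination tumours differed from each other far more than the controls did. Means of 15.3 ± 2.17 TPM in controls and 598 ± 433 TPM with the combination (SD, n = 2 each) differed 39-fold (log2 difference 4.98, SE 0.468; limma adjusted p = 0.0179). Tumours given rapamycin alone held 508 and 5551 TPM and those given the rasagiline combination held 288 and 1829 TPM, so the highest value was in a tumour without clorgyline. The clorgyline combination differed from rapamycin alone by -1.71 (log2, 95% interval -4.56 to 1.14; limma adjusted p = 0.692, 8 libraries). Its call against control held without any single tumour of the 4, and was lost after quantile normalization (limma adjusted p = 0.058), with no filter (0.169) and with all 8 libraries fitted (0.172).

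The largest fall was that of ENSRNOG00000028993, from 37.5 and 44.3 TPM in the controls to 0.000200 and 0.237 TPM in the combination tumours. Every combination value was close to 0 and both control values were near 40 TPM (40.9 ± 4.82 TPM; SD, n = 2). The log2 difference was -5.23, SE 0.253, with limma adjusted p = 0.00215, the lowest of all genes tested. The gene passed the filter of 1 TPM only through the controls, where it is high, so its rank by p is a description. On this scale the size depends on the pseudocount, and it was -7.79 at 0.1 TPM and -3.16 at 5 TPM. The call was lost with no filter (limma adjusted p = 0.169) and with all 8 libraries fitted (0.129). The first rapamycin tumour had 12.5 TPM, the second was listed at 0, and both rasagiline combination tumours had values below 0.001 TPM. Values above 0 but below 0.001 TPM occurred in at least 1 of the 4 tumours for only 16 genes tested, of which 4 were called. Such values are estimates and not whole reads, and whether ENSRNOG00000028993 shares reads with a similar gene was not tested, so its level near 0 is uncertain.

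ENSRNOG00000048953 fell from 24.6 and 13.0 TPM in the controls to 2.27 and 1.03 TPM in the combination tumours. The lower control was still several-fold above the higher combination tumour. Group means were 18.8 ± 8.18 TPM in controls and 1.65 ± 0.880 TPM with the combination (SD, n = 2 each), which is 11.4-fold lower (log2 difference -2.88, SE 0.376; limma adjusted p = 0.0279). Tumours given rapamycin alone were at 0.713 and 0.486 TPM, and those given the rasagiline combination at 0.790 and 0.0834 TPM. The clorgyline combination therefore held the highest mean of the 3 treated groups, but its difference from rapamycin alone was 0.69 (log2, 95% interval -0.28 to 1.66) and did not pass (limma adjusted p = 0.651, 8 libraries). The call against control was lost without the first control, without either combination tumour, with no filter, with all 8 libraries fitted and after both rescalings.

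**Figure D2:**
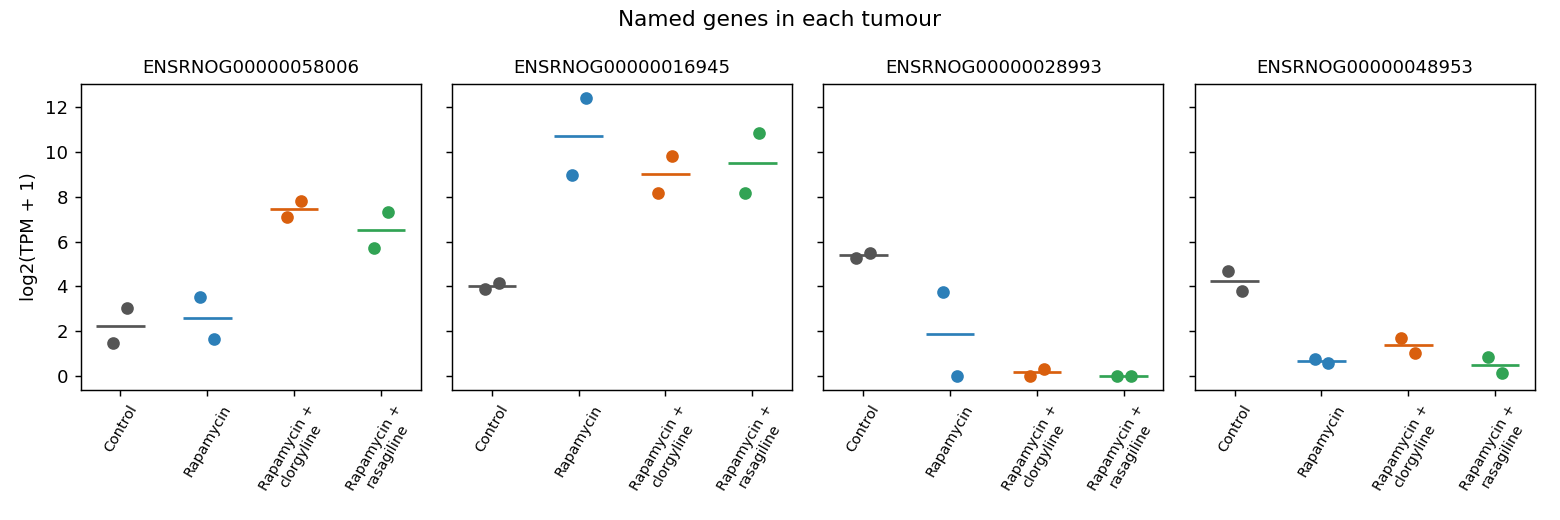
Points give log2(TPM + 1) of each of the 8 tumours for the 4 genes described, with horizontal lines at the group means (n = 2). ENSRNOG00000058006 is high in both combinations and near control with rapamycin alone, while ENSRNOG00000016945 is high and ENSRNOG00000048953 low in all 6 treated tumours.

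The genes next in size moved less. They are counted among called genes with a mean of 5 TPM or more in the higher group. The 10 rises that followed had log2 differences from 2.94 to 4.43 (limma adjusted p from 0.00618 to 0.0423), with controls between 0 and 72.5 TPM and combination tumours between 5.34 and 1300 TPM. The 10 falls that followed had log2 differences from -2.18 to -2.86 (limma adjusted p from 0.010 to 0.0423). Their controls lay between 4.31 and 2080 TPM, and their combination tumours between 0.0268 and 429 TPM. Large changes among called genes were more often rises. 46 called genes rose by over 2 on the log2 scale and 18 fell by that much, and 11 against 1 passed 3. Rises were also the more frequent among all genes tested. Of those that differed by over 1 on the log2 scale without overlap, 526 were higher and 248 lower.

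Many of the genes that rose were scarce in vehicle tumours, which their choice as higher with the combination favours. Their median was 3.82 TPM in controls and 18.2 TPM with the combination. Of the 116, 24 had a mean below 1 TPM in the controls and 47 had one of 5 TPM or more. With the combination, 18 of the 116 reached a mean of 100 TPM. The 24 could not pass the filter on the controls alone and needed a combination tumour at 1 TPM or more. These counts were not made over all genes tested, so they are a description. The genes that fell were more abundant in controls, which their choice as lower with the combination likewise favours. Their median was 48.5 TPM in controls and 18.8 TPM with the combination. A control mean of at least 100 TPM was held by 33 of the 88 (29 of 84 with identical identifiers counted once). Of the 2908 genes with a mean below 5 TPM over the 4 tumours, 1.13% rose and 0.378% fell. Of the 1497 genes with a mean of 100 TPM or more, 1.00% rose and 1.67% fell (1.01% and 1.41% with identical identifiers counted once). The lower class also had the higher median difference among all its genes, 0.17 against -0.01 (log2), and the larger median gap between the 2 controls, 0.270 against 0.169 (log2).

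Some called genes were listed at 0 throughout a group. 11 of those that rose were at 0 in both controls, of 25 such genes among all genes tested. These 11 lay between 1.77 and 15.4 TPM in the combination tumours. With rapamycin alone each tumour had 4 of these 11 at 0, of which 2 were at 0 in both. With the rasagiline combination none were at 0 in the first tumour and 2 were in the second. 3 of the genes that fell were at 0 in both combination tumours, of 5 such genes among all genes tested. The control values of these 3 lay between 1.83 and 3.22 TPM. Genes of this kind pass the filter only through the group in which they are high, so their number is a description. No fold is given for them.

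The 116 genes that rose held 0.435% and 0.444% of all TPM in the controls and 1.27% and 1.37% in the combination tumours. The 88 that fell held 1.43% and 1.34% in the controls and 0.547% and 0.511% in the combination tumours. With the 5 identical identifiers counted once, these shares were 1.16%, 1.11%, 0.433% and 0.417%. Within each group the tumours lay close together on these sums. This follows in part from how the genes were called, because the test on these same tumours favours genes that vary little within a group. Of the 2 combination tumours, the second stood slightly farther from control, with median log2 differences from the control mean of 1.98 and -1.47 for genes that rose and fell, against 1.74 and -1.39 for the first. Over all genes tested the root mean square log2 difference was 0.423 between the controls, 0.503 between the combination tumours and 0.556 to 0.666 between a control and a combination tumour.

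Set beside the other treatments, the 116 genes that rose had a median log2 difference from control of 0.98 with rapamycin alone and 1.67 with the rasagiline combination, next to 1.86 with the clorgyline combination. For the 88 that fell the medians were -1.59, -1.48 and -1.49 in the same order. The genes were chosen on the clorgyline combination, which raises its own values, and all 3 comparisons use the same controls. The rapamycin tumours differed from each other for the genes that rose, with medians of 1.34 and 0.53, while all 4 combination tumours lay between 1.58 and 1.98. The call of these genes favours a small gap between the clorgyline combination tumours. It did not use the rapamycin or rasagiline tumours, so these gaps are not alike.

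**Figure D3:**
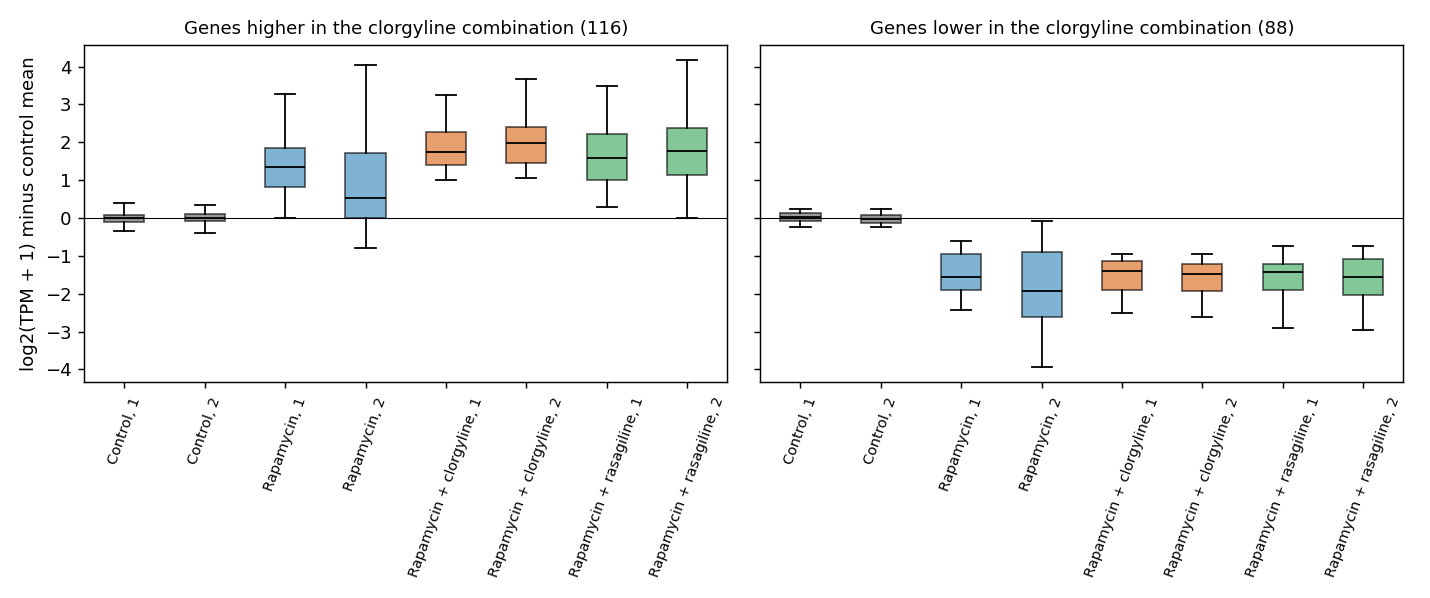
Boxes show log2(TPM + 1) minus the control mean in each of the 8 tumours for the 116 genes that rose (left) and the 88 that fell (right) with the clorgyline combination, with medians, quartiles and whiskers at the 5th and 95th percentiles of genes. The second rapamycin tumour has the lowest median of the treated tumours on the left (0.53) and also the lowest on the right (-1.92).

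The test of the difference between treatments was the contrast of the clorgyline combination with each of the others in the fit of all 8 libraries. Against rapamycin alone 0 of 12961 genes passed (0%; limma, smallest adjusted p = 0.101). In the limma fit 1000 genes were below 0.05 before adjustment, where chance gives 648, but with only these groups fitted it was 553. Without the first rapamycin tumour 474 genes passed, of which 371 were higher and 103 lower with clorgyline, without the second rapamycin tumour 2 passed, and without the second rasagiline combination tumour 3 passed. For 65.9% of genes both ends of the 95% interval of this difference were less than 1 log2 unit from 0. Against the rasagiline combination 2 genes passed (0.0154%), both lower with clorgyline, and 563 were below 0.05 before adjustment. The doses of clorgyline and rasagiline were 10 and 1 mg/kg per day and so not matched. The count was 0 without either control or any single combination tumour, 2 and 3 without the first and second rapamycin tumour.

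**Figure D4:**
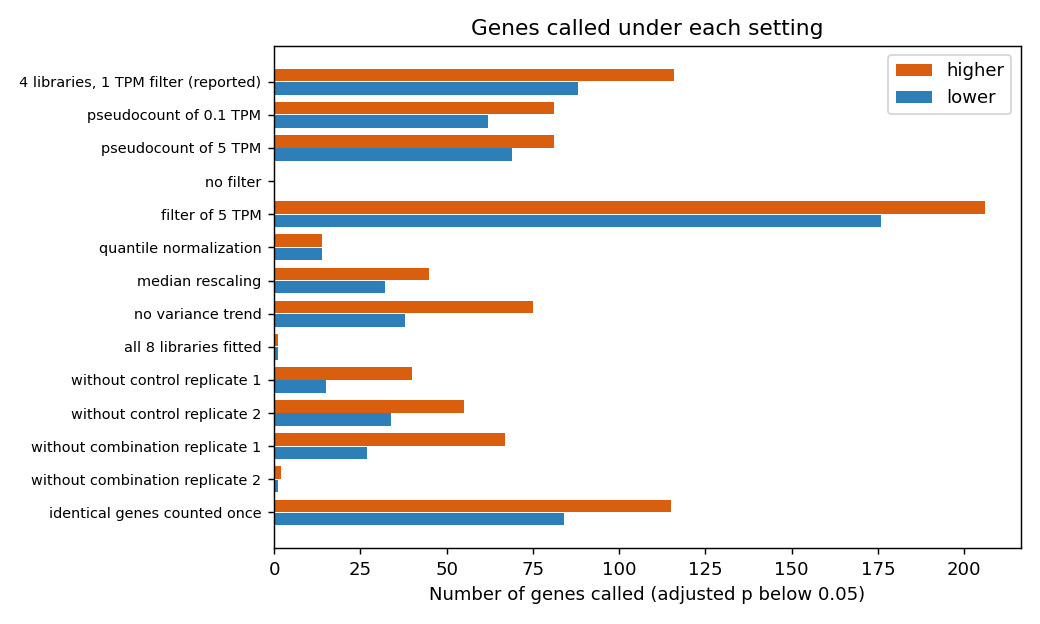
Bars give the number of genes called higher and lower with rapamycin and clorgyline than in controls (adjusted p below 0.05), from the reported fit and from each of 13 other settings. The reported fit calls 116 and 88, the filter of 5 TPM 206 and 176, and the omission of the second combination tumour 2 and 1.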

How the data were processed

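The authors deposited 1 table of TPM values for 23918 Ensembl rat gene identifiers with a column for each of 8 tumours. The rn6 build and the tools bedtools, DESeq2, SAMtools 0.1.18 and STAR 2.4.0f1 are listed without roles, per the submitters' processing notes. How TPM was computed, from which annotation, and whether mouse reads were removed, is not stated in the sources used here. RNA came from TRIzol extraction and libraries from Illumina TruSeq preparation, per the labels' protocols.

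Columns were matched to samples by title. Genes with at least 1 TPM in at least 2 of the 4 tumours compared were kept. limma 3.58.1 (R 4.3.3) was fitted to log2(TPM + 1) of these 4 tumours, with 2 residual degrees of freedom and variances moderated with an intensity trend (4.97 prior degrees of freedom). Differences on this scale understate changes of low genes. Tests were two-sided with Benjamini-Hochberg adjustment over all genes tested, and "rose" and "fell" mean an adjusted p below 0.05. Contrasts with the other treatments used the same genes and all 8 libraries. The labels do not say that each tumour came from its own mouse, so p-values reflect only how far these tumours vary, which may be technical.

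The comparison, its rule and all lists were chosen with earlier results of these data known. The 39 gene lists (27 of pathways, 12 of cell types) consist of symbols. The reference (GRCr8, 47357 genes) carried no Ensembl identifiers to match, so 0 were matched and none of the lists could be used. The rule for named genes then took the 2 largest changes in each direction among called genes with groups that do not overlap and 5 TPM or more on average in the higher group. Figures used Python 3.11.15 with matplotlib 3.10.9.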

Additional observations from a re-analysis of the deposited data

How the results depend on the processing

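The count of 204 genes called (116 higher, 88 lower) became 382 (206 and 176) with a filter of 5 TPM, 113 (75 and 38) without a variance trend, 77 (45 and 32) after median rescaling, 28 (14 and 14) after quantile normalization, 2 (1 and 1) with all 8 libraries fitted, and 0 (0 and 0) with no filter, where the smallest limma adjusted p was 0.169 and 2693 genes had an unadjusted p below 0.05. It was 143 and 150 at pseudocounts of 0.1 and 5 TPM, of which 142 and 149 were among the 204. It was 199 (115 and 84) with identical identifiers counted once, a setting chosen after seeing the data. All 28 genes after quantile normalization and 75 of the 77 after median rescaling were among the 204. Leaving out single tumours gave 3 to 94 genes (2 to 67 higher, 1 to 34 lower). The share of called genes that were higher was 56.9%, against 66.4% without a variance trend and 58.4% after median rescaling. It was 50% after quantile normalization and with all 8 libraries fitted, 53.9% with a filter of 5 TPM and 54% at a pseudocount of 5 TPM. The share was larger in every fit that left out a single tumour. These fits have 1 residual degree of freedom and assume that a tumour left alone in its group varies like the other group.

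Against rapamycin alone, 1 gene passed at a pseudocount of 0.1 TPM, 0 in the other settings that kept all libraries, and 0 to 474 when single libraries were left out. Against the rasagiline combination the count of 2 became 5 at a pseudocount of 5 TPM, 1 with only these groups fitted and 0 with no filter, and 0 to 3 when single libraries were left out.

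Of 13 alternatives each, ENSRNOG00000028993 stayed called in 11, ENSRNOG00000016945 in 10, ENSRNOG00000058006 in 9 and ENSRNOG00000048953 in 6, and none of these 4 genes changed direction, which follows when single tumours are left out from groups that do not overlap. Their limma adjusted p reached 0.169, 0.172, 0.169 and 0.175 in the same order.

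The planned recount of gene lists was not run, because the lists could not be matched. No paired analysis was possible because the labels give no replicate number that links a control to a treated tumour. Depth was unknown, so no counting limit was computed.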

Other observations

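In 3 of the 10 rises that followed the largest, both tumours given rapamycin with clorgyline were above all 6 other tumours. These genes were singled out after their values were seen, among rises that had been picked for being high in those same tumours. How many of all genes tested had this order was not counted, so the 3 are a description. The order alone makes their differences from the other treatments positive. The 95% intervals given for them are not adjusted for this choice or for the number of genes, so they are a description. The most abundant of the 3 stood at 526 and 1300 TPM with rapamycin and clorgyline, against 72.5 and 40.5 TPM in the controls, 102 and 45.6 TPM with rapamycin alone and 83.7 and 63.6 TPM with rapamycin and rasagiline. Its means of 56.5 ± 22.6 TPM in controls and 913 ± 547 TPM with the combination (SD, n = 2 each) differed 16.2-fold (log2 difference 3.91, SE 0.437; limma adjusted p = 0.0205). In the fit of all 8 libraries it exceeded rapamycin alone by 3.58 (log2, 95% interval 2.35 to 4.81) and the rasagiline combination by 3.49 (log2, 95% interval 2.26 to 4.72). Neither difference passed over all genes (limma adjusted p = 0.192 and 0.273).

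Another of the 3 had 29.5 and 65.5 TPM with rapamycin and clorgyline and at most 21.6 TPM in any other tumour. It exceeded rapamycin alone by 3.24 (log2, 95% interval 0.95 to 5.52) and the rasagiline combination by 2.33 (log2, 95% interval 0.05 to 4.61), which did not pass over all genes (limma adjusted p = 0.566 and 0.997). The remaining gene had 18.1 and 20.1 TPM with rapamycin and clorgyline and at most 7.53 TPM elsewhere. Its differences of 3.21 from rapamycin alone (log2, 95% interval 2.08 to 4.33) and 1.73 from the rasagiline combination (log2, 95% interval 0.60 to 2.86) did not pass either (limma adjusted p = 0.197 and 0.833).

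Identical values in all 8 tumours were shared by 113 of the 12961 genes tested, in 52 sets. The 5 called identifiers of this kind form 1 set. Each is listed at 690 and 556 TPM in the controls, 284 and 236 TPM with rapamycin and clorgyline, 198 and 591 TPM with rapamycin alone and 237 and 209 TPM with rapamycin and rasagiline. Whether they share reads was not tested.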
